A study of Mus musculus with 42 samples.

Results

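The mitochondrial ribosome is the ribosome inside mitochondria, and it translates only the proteins encoded by mitochondrial DNA, which are subunits of the oxidative phosphorylation complexes. Its RNA is made in the mitochondrion, while its proteins are encoded by nuclear genes, made in the cytosol and imported. It has a large subunit, which forms the peptide bonds, and a small subunit, which decodes the mRNA, and it holds both proteins with homologues in bacterial ribosomes and proteins particular to mitochondria. Skeletal muscle is rich in mitochondria, and most of its nuclear oxidative phosphorylation genes depend on this ribosome for the complementary subunits of the same complexes.

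The genes described here are the 77 rows of the deposited expression table, of 13809, whose symbol is Mrpl or Mrps followed by a number and at most 1 letter. Of these, 30 encode large subunit proteins with a bacterial homologue and 20 large subunit proteins particular to mitochondria. The small subunit has 16 of the first kind and 10 of the second. The remaining gene, Mrps36, carries a small subunit symbol although its protein belongs to the oxoglutarate dehydrogenase complex, a dehydrogenase of the tricarboxylic acid cycle. Mrps18a and Mrps30 carry small subunit symbols too, and their proteins are built into the large subunit, where they are counted here. All 77 genes passed the filter on low values in both sets of libraries.

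The table holds RNA-seq of TA (tibialis anterior, a muscle of the lower hindlimb) from male C57BL/6J mice of 4 months, in 42 libraries of 2 sets that were compared only within themselves. Set 1 has WT muscle in the basal state (4 libraries) and immobilized for 3 days (3 libraries), Sesn1SkM-Tg muscle (4 basal, 3 immobilized) and Sesn2SkM-Tg muscle (4 basal, 4 immobilized). By the paper, each transgenic line had its own non-transgenic littermates as controls, and Sesn1KO mice had normal WT mice. The labels of set 1 give a single WT group, and do not say of which line these mice were littermates. Sesn1SkM-Tg mice carry human Sesn1 under the MCK promoter, and Sesn2SkM-Tg mice carry human Sesn2 under a tetracycline-regulated promoter driven by MCK-tTA, so both transgenes are made in muscle fibres. Sestrins are stress-inducible proteins that restrain signalling by mTOR complex 1. Set 2 has basal and immobilized muscle of WT and Sesn1KO mice and WT muscle 3 days after denervation, in which a segment of the sciatic nerve was removed, with 4 libraries in each of the 5 groups. Values are normalized counts as the authors deposited them, linear and of about the size of CPM. Depth is unknown, so no counting error is given and the error is that between libraries.

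Marker genes of muscle fibres such as Acta1 and Ckm were abundant in all libraries, and the targeted genes followed the labels in part. Sesn1 was at 41.6 to 77.6 in basal Sesn1SkM-Tg muscle and at 14.98 to 22.1 in basal WT muscle, and Sesn2 at 6.54 to 13.03 in basal Sesn2SkM-Tg muscle and at 2.18 to 3.39 in basal WT muscle. Sesn1 was at 8.42 to 10.05 in basal Sesn1KO muscle against 22.5 to 29.7 in WT, but the immobilized Sesn1KO libraries, at 19.4 to 37.3, overlapped with the immobilized WT libraries, at 30.7 to 53.1. In set 1, replicate 4 of basal WT muscle and replicate 2 of basal Sesn2SkM-Tg muscle stood apart from their groups by high levels of short genes relative to long genes. The mean log2 level of genes with exons under 1500 bases minus that of genes with at least 6000 was compared within the groups. It was -0.62 in the former, against -1.22 to -1.13 in the rest of its group, and -0.36 in the latter, against -1.04 to -0.84. The share of the library sum from genes under 1500 bases set only the latter apart, at 29.7% against 20.1% to 24.5%. In the former it was 23.2%, within the 20.2% to 23.6% of the rest of its group. Several counts and medians that rest on these libraries are given with and without them, and other results, such as levels in basal muscle, with them only. In set 2, replicate 3 of immobilized Sesn1KO muscle had the highest summed level of 9 fibre genes in its group, 136820 against 94971 to 108334, and the lowest summed level of the macrophage and leukocyte markers, 59.3 against 104 to 354.

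By the GENCODE M21 annotation (GRCm38), 76 of the genes lay on 17 chromosomes, with 10 on chromosome 11 and 8 on chromosome 17, and Mrpl33 was not found by its identifier. Their exons covered 607 to 8631 bases, with a median of 2213.5 against 4338 for all genes of the table. The library kit keeps no strand, so reads of exons shared with another gene cannot be told apart. Such sharing reached 20% or more of the exon bases in 6 genes, from 26.3% of Mrpl24 with Rrnad1 to 88.0% of Mrpl53 with Gm42688, and included 36.0% of Mrpl19 with Gcfc2. The exons of Mrpl46 and Mrps11 overlapped each other by 173 bases. Mrpl23 has a pseudogene, Mrpl23-ps1, as another row of the table, so its values are uncertain.

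Promoter sequences of RefSeq (GRCm38.p6), taken as the 250 bases before each start, were matched to 68 of the 77 genes. Letters bound by factors known for nuclear genes of mitochondrial proteins were searched on both strands, and none of the motifs searched contains another. The NRF1 motif (GCGC, any base and then TGCGC) was in the promoters of 10 genes, or 14.7%, against 9% of the 9957 matched genes of the table. The ETS motif (CCGGAAG) was in 17 genes, or 25%, against 15.1%, and the YY1 motif (AAGATGGC) in 4 genes, or 5.9%, against 2.4%. The E-box (CACGTG) was in 5 genes, or 7.4%, against 9.8%, and the GC box (GGGCGG) in 33 genes, or 48.5%, against 62.7%. These shares describe letters and not binding. The 4 stretches shown here belong to genes whose levels are described later, 3 of them lower in all immobilization comparisons on the deposited scale (Mrpl3, Mrpl42, Mrps36) and 1 of them among the most abundant (Mrpl12). Each is the stretch before the start that lies outside annotated exons, 5′ to 3′ on the strand of the gene, with the motif found in capitals.
Mrpl3, chr9:105053018-105053238, plus strand, no motif in this stretch: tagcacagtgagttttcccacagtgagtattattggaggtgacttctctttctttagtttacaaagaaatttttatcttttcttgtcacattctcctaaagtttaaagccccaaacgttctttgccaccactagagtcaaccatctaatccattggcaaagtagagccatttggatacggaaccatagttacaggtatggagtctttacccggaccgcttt
Mrpl42, chr10:95501950-95502199, minus strand, a GC box: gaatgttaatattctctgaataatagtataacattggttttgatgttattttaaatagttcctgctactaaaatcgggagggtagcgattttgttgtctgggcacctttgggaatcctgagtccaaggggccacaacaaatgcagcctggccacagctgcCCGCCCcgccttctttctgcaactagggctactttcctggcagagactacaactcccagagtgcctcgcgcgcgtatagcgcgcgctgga
Mrps36, chr13:100744660-100744909, minus strand, 2 overlapping GC boxes: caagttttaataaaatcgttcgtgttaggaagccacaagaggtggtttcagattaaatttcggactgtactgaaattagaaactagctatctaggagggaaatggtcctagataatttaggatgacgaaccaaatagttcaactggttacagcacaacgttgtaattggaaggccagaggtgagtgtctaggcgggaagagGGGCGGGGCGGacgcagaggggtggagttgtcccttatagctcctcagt
Mrpl12, chr11:120484387-120484612, plus strand, an NRF1 motif: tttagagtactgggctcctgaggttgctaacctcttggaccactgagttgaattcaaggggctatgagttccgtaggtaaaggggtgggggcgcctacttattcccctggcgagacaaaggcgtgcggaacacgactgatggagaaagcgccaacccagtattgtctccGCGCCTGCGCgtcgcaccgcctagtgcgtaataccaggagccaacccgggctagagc
The stretch of Mrpl3 held none of the 5 motifs, but it leaves out the last 29 bases before the RefSeq start, which lie in an annotated exon, and an ETS motif begins 19 bases before that start. Mrpl3 is therefore among the 17 genes counted with that motif.

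In basal WT muscle, the genes differed widely from each other in their level per kb of exon. In set 2 the median over 76 genes was 14.2 normalized counts per kb, with a range from 0.565 to 100.4, and the median over all genes of the table was 2.33. The large subunit genes had a median of 15.6 per kb and the small subunit genes one of 10.2. Nuclear oxidative phosphorylation genes stood far higher, at a median of 154 per kb over 81 genes, and cytosolic ribosomal protein genes at 56.0 over 80 genes. The highest levels belonged to Mrps21, whose product is a small subunit protein, at 100.4 per kb, Mrpl12, of the stalk that recruits translation factors, at 75.5, and Mrpl2, near the peptidyl transferase centre, at 56.6. The levels of Mrpl2 were close to those of Mrpl18 (56.0) and Mrps28 (55.8). At the low end stood Mrpl23, Mrps35 (1.89 per kb) and Mrps10. In set 1, Mrps21 (89.1) and Mrpl12 (69.1) were again the highest, and Mrps28 followed at 57.3. The plot of levels by rank shows a gradual slope between these ends. Variation between libraries was small in set 2, with a median coefficient of variation of 8.01%, and larger in set 1, at 26.3%.

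**Figure D1:**
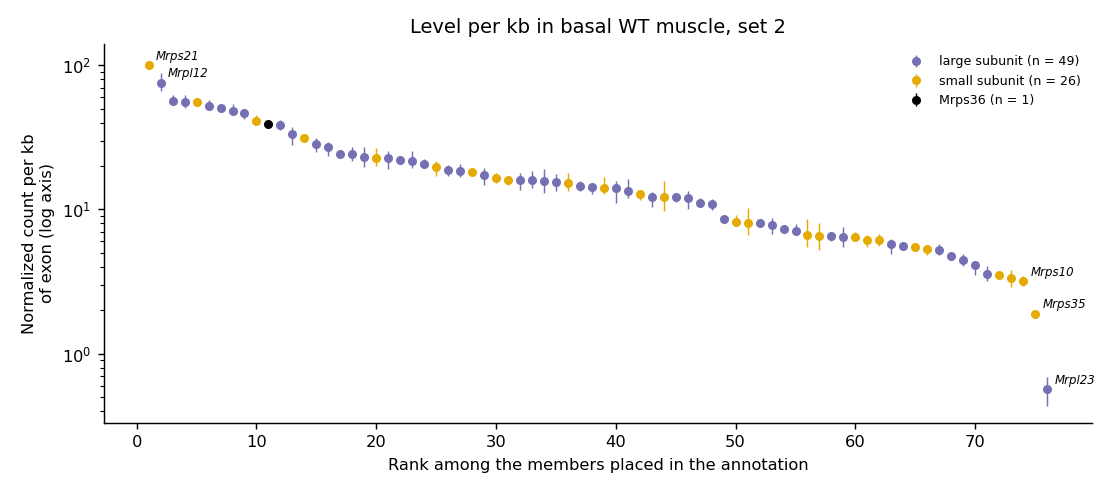
Level per kb of exon (normalized count per kb, log axis) of the 76 genes placed in the annotation, ranked from highest to lowest in basal WT muscle of set 2. Points are means of 4 libraries, coloured by subunit, and bars run from the lowest to the highest library. Mrps21 and Mrpl12 stand above the rest at 100.4 and 75.5 per kb.

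On the deposited scale, immobilization lowered part of the family and raised few of its genes, and in set 1 this split turned when the libraries were rescaled to equal sums. In set 2, the summed level of the 77 genes in WT muscle ranged from 2859 to 3098 normalized counts in the basal state and from 2463 to 2564 after immobilization, so that the libraries of the groups did not overlap. In Sesn1KO muscle the sum ranged from 2856 to 3317 in the basal state and from 2369 to 2886 after immobilization, and the groups overlapped by replicate 3 alone. Set 1 showed more spread. The sums of basal WT muscle were 2450.07, 2464, 2702 and 3952, and those of immobilized WT muscle were 2202, 2631 and 2263.

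Calls were made by limma and needed an adjusted p under 0.05 and a log2 fold change of 0.25 or more in either direction. In WT muscle of set 2, 28 of the 77 genes were lower (36.4%) and 2 were higher, where 17.7% of all 13629 genes tested were lower and 16.2% higher. In Sesn1KO muscle, 35 genes were lower (45.5%) and 2 higher, against 19.9% and 17.2% of all genes. Without replicate 3 of the immobilized Sesn1KO group, 35 were lower and 1 higher. In set 1, 15 genes were lower and 0 higher in WT muscle (background 14.5% and 14.9% of 13705 genes), 11 lower and 0 higher in Sesn1SkM-Tg muscle (16.5% and 18.2%), and 16 lower and 1 higher in Sesn2SkM-Tg muscle (15.7% and 15%). The lower counts of set 1 were thus near the background, and those of set 2 were above it. The median log2 fold change over the 77 genes lay between -0.27 and -0.22 in the 5 comparisons, and 59 to 65 of the genes were below 0 in each. Of all genes, 47.8% to 50.2% were above 0. Without replicate 4 of the basal group the median of WT muscle in set 1 was -0.0557, and without replicate 2 of the basal group that of Sesn2SkM-Tg muscle was -0.102.

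These splits depended on the scale. The values of a library do not sum to a fixed total, and most immobilized libraries summed to less than the basal ones. With every library rescaled to a sum of 1000000, the median of all genes moved up by 0.253 to 0.275 on the log2 scale in the 3 comparisons of set 1 and by 0.0904 and 0.0972 in those of set 2. Set 1 then had 9 genes of the family higher and 1 lower in WT muscle, where 29.8% of all genes were higher and 5.41% lower. The rescaled counts were 5 higher and 1 lower in Sesn1SkM-Tg muscle (30.2% and 6.38% of all genes) and 11 and 1 in Sesn2SkM-Tg muscle (28.6% and 7%). In set 2 they were 5 higher and 15 lower in WT muscle (21.6% and 12%) and 5 and 25 in Sesn1KO muscle (21.8% and 14.5%). The rescaled median of the family was 0.10, 0.03 and 0.09 in the 3 comparisons of set 1, above 0, and -0.11 and -0.16 in those of set 2. No gene was called in opposite directions on the 2 scales in any comparison. Relative to the median of all genes, the median of the family stood between -0.26 and -0.21 on the deposited scale and between -0.22 and -0.17 after rescaling. As a share of the library sum, the 77 genes made up 0.268% to 0.282% in basal and 0.248% to 0.261% in immobilized WT muscle of set 2. In set 1 the shares of WT muscle overlapped, at 0.230% to 0.341% and 0.253% to 0.299%. In bulk muscle, fewer fibres in the sample and less RNA per fibre cannot be told apart.

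**Figure D2:**
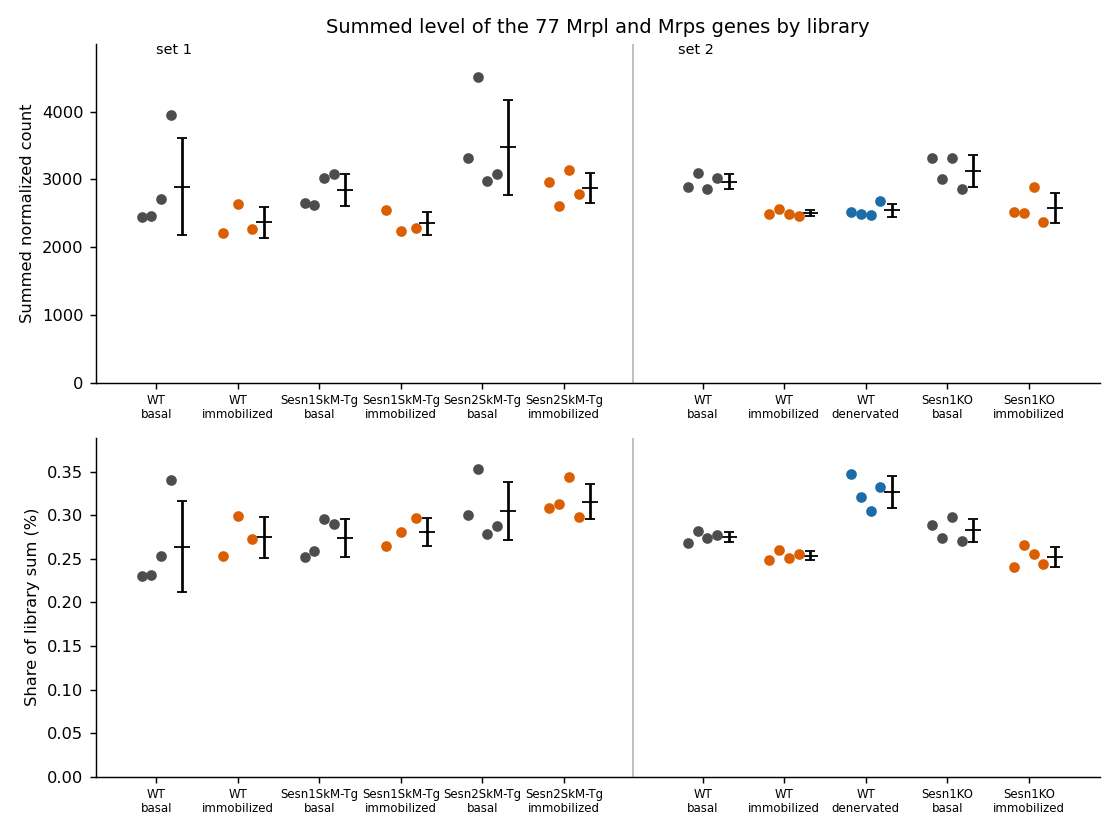
Summed normalized count of the 77 genes (top) and its share of the library sum in percent (bottom) in each library, with the mean and standard deviation of each group (n = 3 or 4). In set 2, immobilized and denervated WT muscles lie below basal WT muscles in the sum (2463 to 2680 against 2859 to 3098), whereas the denervated ones have the highest shares.

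Markers of other cells moved with immobilization. The macrophage and leukocyte list (9 genes) had 9 genes higher in WT muscle of set 1 and in Sesn1SkM-Tg muscle, 3 in Sesn2SkM-Tg muscle, 2 in WT muscle of set 2 and 1 in Sesn1KO muscle. Its summed level ranged from 42.1 to 64.1 in basal WT muscle of set 1 and from 208 to 396 after immobilization, and from 38.3 to 155 and from 119 to 223 in the same groups of set 2. The summed level of the 9 fibre genes ranged from 117883 to 148056 in basal and from 76274 to 93603 in immobilized WT muscle of set 1, and from 129739 to 141737 and from 116488 to 125855 in set 2. These genes did not all move together. In WT muscle of set 2 the median of Myh1 went from 11810 to 18198 and that of Myh2 from 950 to 2207. Acta1 was higher too, and Ckm, Mb, Myh4, Tnnt3, Pvalb and Actn3 were lower by their medians. In set 1 the median of Myh2 was higher (1085 against 1025), and those of the other fibre genes were lower. Of 5 fibroblast markers, 3 were higher in WT muscle of set 1 (summed level 336 to 796 in basal and 757 to 1362 in immobilized muscle) and 5 in Sesn1SkM-Tg muscle. In the other 3 comparisons 0 were higher, and 1 was lower in Sesn1KO muscle. Of 5 endothelial markers, 5 were lower in WT muscle of set 2 (238 to 303 and 128 to 214) and 2 in Sesn1KO muscle, whereas 2, 4 and 4 were higher in WT, Sesn1SkM-Tg and Sesn2SkM-Tg muscle of set 1 and 1 was lower in WT muscle of set 1. The part of these markers in the fall of the mitochondrial ribosomal genes was not tested.

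Across the 5 immobilization comparisons, which share no library, 41 of the 77 genes were lower in at least 1 (53.2%, against 34.6% of the 13571 genes tested in both sets), 4 were higher in at least 1 (5.19%, against 37.3%), 32 were called in none (41.6%, against 31.97%), and 0 were lower in one and higher in another. The genes lower in all 5 were 6, or 7.79%, close to the 5.69% of all genes. They were Mrpl19, Mrps36, Mrpl18, Mrpl42, Mrpl3 and Mrpl1, 5 large subunit genes and the gene of the oxoglutarate dehydrogenase subunit. This held on the deposited scale. After rescaling 0 genes of the family were lower in all 5 (2.47% of all genes), 25 were lower in at least 1 (32.5%, against 20.8%) and 18 higher in at least 1 (23.4%, against 51.9%). All 6 genes stayed lower after rescaling in both comparisons of set 2, but in set 1 the calls that stayed were those of Mrpl19 in WT and Sesn1SkM-Tg muscle and of Mrpl42 in Sesn2SkM-Tg muscle. Counting genes that did not pass the test, 48 were below 0 and 7 above 0 in all 5 comparisons on the deposited scale. The share of all genes with 1 sign in all 5 is not given, nor are these counts after rescaling. They are therefore not read as particular to the family.

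Mrps36 (chr13:100735955-100744659, minus strand) was at 50.7, 52.7, 50.3 and 46.9 in basal WT muscle of set 2 and at 29.9, 25.7, 28.03 and 30.8 after immobilization. All immobilized libraries were below all basal libraries, and the log2 fold change was -0.79 ± 0.12 (SE, adjusted p = 3.28e-05). In Sesn1KO muscle it ranged from 44.9 to 58.1 in the basal state and from 25.6 to 37.3 after immobilization, with a log2 fold change of -0.75 ± 0.12 (SE, adjusted p = 4.34e-05). In set 1 the libraries of WT muscle overlapped (34.6, 34.7, 41.01 and 73.04 against 20.7, 35.9 and 23.9), and the log2 fold change was -0.72 ± 0.24 (SE, adjusted p = 0.0311). That call was lost without replicate 4 of the basal group (adjusted p = 0.101), replicate 1 of the immobilized group (adjusted p = 0.132) or replicate 3 of it (adjusted p = 0.121). The transgenic lines gave -0.63 ± 0.24 (SE, adjusted p = 0.0497) in Sesn1SkM-Tg and -0.70 ± 0.23 (SE, adjusted p = 0.0233) in Sesn2SkM-Tg muscle, calls that were lost in 6 of 7 and 3 of 8 cases with 1 library left out. None of its 3 calls in set 1 held after rescaling, where the log2 fold changes were -0.39, -0.33 and -0.39.

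Mrpl19 (chr6:81957851-81965958, minus strand), a large subunit protein with a bacterial homologue, was at 19.1, 22.6, 23.1 and 26.3 in basal and 11.3, 14.6 and 10.3 in immobilized WT muscle of set 1. The groups did not overlap, and this was the largest fall of the family in that comparison, at -0.87 ± 0.15 (SE, adjusted p = 0.00034). In WT muscle of set 2 it was at 23.9, 23.2, 19.02 and 23.6 and at 13.2, 12.4, 12.5 and 19.2, where the highest immobilized library just exceeded the lowest basal one. The log2 fold change was -0.63 ± 0.13 (SE, adjusted p = 0.000542) there and -0.71 ± 0.13 (SE, adjusted p = 0.000135) in Sesn1KO muscle. After rescaling its log2 fold change in WT muscle of set 1 was -0.55.

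Mrpl18 (chr17:12911349-12916345, minus strand), which binds at the central protuberance of the large subunit, was at 77.3, 86.7, 78.98 and 70.1 in basal and 48.99, 49.8, 56.3 and 53.9 in immobilized WT muscle of set 2. Mrpl42 (chr10:95480805-95501940, minus strand), a protein particular to mitochondria, was more abundant, at 179.5, 213, 193 and 183 and 144, 129, 124 and 129. For both genes the groups did not overlap in any of the 5 comparisons. The log2 fold changes of Mrpl18 were -0.57 ± 0.11 (SE, adjusted p = 0.000415) in WT and -0.74 ± 0.11 (SE, adjusted p = 2.1e-05) in Sesn1KO muscle, and those of Mrpl42 were -0.54 ± 0.09 (SE, adjusted p = 9.95e-05) and -0.61 ± 0.09 (SE, adjusted p = 2.12e-05). In set 1, Mrpl18 changed by -0.69, -0.57 and -0.60 in WT, Sesn1SkM-Tg and Sesn2SkM-Tg muscle, and Mrpl42 by -0.55, -0.60 and -0.72. After rescaling Mrpl18 lost all 3 of these calls (-0.36, -0.27 and -0.29), and Mrpl42 lost those of WT (-0.22) and Sesn1SkM-Tg muscle (-0.30).

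Mrpl3 (chr9:105053239-105079888, plus strand) encodes a protein near the peptidyl transferase centre, and Mrpl1 (chr5:96209493-96266727, plus strand) one of the stalk beside the exit site of tRNA. Mrpl3 was at 42.7, 44.9, 45.7 and 40.1 in basal and 25.5, 31.5, 28.2 and 27.05 in immobilized WT muscle of set 2, a log2 fold change of -0.61 ± 0.10 (SE, adjusted p = 7.57e-05). Mrpl1 was at 33.9, 33.5, 28.9 and 37.4 and 21.2, 27.5, 24.7 and 21.4, a log2 fold change of -0.48 ± 0.10 (SE, adjusted p = 0.00103). The groups of both genes stayed apart there and in the other 4 comparisons. Over those 4, the log2 fold changes ranged from -0.68 to -0.43 for Mrpl3 and from -0.49 to -0.38 for Mrpl1. In set 1 both genes lost their 3 calls after rescaling, with log2 fold changes from -0.25 to -0.13 for Mrpl3 and from -0.19 to -0.09 for Mrpl1. In set 2 none of the 6 genes lost its call when any 1 library was left out.

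The largest fall after immobilization in set 2 was that of Mrpl34 (chr8:71464959-71465747, plus strand), a large subunit protein with a bacterial homologue. It was at 27.6, 27.6, 29.1 and 32.7 in basal and 17.5, 16.3, 11.4 and 20.2 in immobilized WT muscle, a log2 fold change of -0.82 ± 0.15 (SE, adjusted p = 0.000268). In Sesn1KO muscle it was at 31.5, 28.6, 37.5 and 33.4 and 13.5, 12.9, 16.7 and 12.02, a log2 fold change of -1.19 ± 0.15 (SE, adjusted p = 3.1e-06). Neither pair of groups overlapped. In set 1 it was not called, and the basal WT libraries, at 14.9, 13.7, 26.2 and 47.1, overlapped with the immobilized ones, at 13.97, 20.9 and 11.2. Mrpl28, a large subunit protein with a bacterial homologue, was among the 3 largest falls in the transgenic lines, with -0.60 ± 0.21 (SE, adjusted p = 0.0305) in Sesn1SkM-Tg and -0.69 ± 0.19 (SE, adjusted p = 0.0096) in Sesn2SkM-Tg muscle, calls that were lost after rescaling.

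Few genes were higher after immobilization. Mrps12, of the decoding centre of the small subunit, was at 19.8, 17.98, 18.02 and 19.99 in basal and 26.3, 25.3, 26.9 and 20.02 in immobilized WT muscle of set 2, a log2 fold change of 0.36 ± 0.14 (SE, adjusted p = 0.0498) with groups that did not overlap. It was also higher in Sesn1KO muscle, at 0.39 ± 0.14 (SE, adjusted p = 0.0281), where the groups overlapped. Mrpl57, a large subunit protein particular to mitochondria, was higher in WT muscle of set 2 at 0.30 ± 0.11 (SE, adjusted p = 0.0402). Mrps18b, described below, was higher in Sesn1KO muscle at 0.30 ± 0.09 (SE, adjusted p = 0.013), and Mrpl32, a large subunit protein with a bacterial homologue, in Sesn2SkM-Tg muscle at 0.38 ± 0.12 (SE, adjusted p = 0.0182). Some of these calls rested on few libraries. With 1 library left out, Mrps12 lost its call in 7 of 8 cases in WT muscle, all but replicate 4 of the immobilized group, and in 4 of 8 in Sesn1KO muscle, and Mrpl57 in 5 of 8. Mrps18b lost its call without replicate 4 of the basal group and Mrpl32 without replicate 4 of the basal group of its comparison.

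The counts of set 1 rested on single libraries. In WT muscle 15 genes were lower, against 5 lower and 1 higher without replicate 1 of the immobilized group and 2 lower without replicate 3 of it. In Sesn1SkM-Tg muscle the 11 lower genes became 7 without replicate 4 of the basal group, 5 without replicate 2 of the immobilized group and 3 without replicate 3 of it. In Sesn2SkM-Tg muscle the 17 calls became 10 without replicate 2 of the basal group (3 higher and 7 lower), 5 without replicate 2 and 10 without replicate 4 of the immobilized group. Of the genes lower in all 5 comparisons, Mrpl19 kept its call in WT muscle without any 1 library, while Mrpl18, Mrpl3 and Mrpl1 lost theirs without replicate 3 of the immobilized group and Mrpl42 without replicate 1 or 3 of it. In Sesn1SkM-Tg muscle, Mrpl3 lost its call in 6 of 7 cases, Mrpl18 and Mrpl28 in 3 and Mrpl42 in 1, without replicate 3 of the immobilized group, and in Sesn2SkM-Tg muscle Mrpl18, Mrpl19 and Mrpl1 lost theirs without replicate 2 of the immobilized group. Without both libraries that stood apart, the counts were 11 lower and 6 higher in WT muscle and 14 lower and 7 higher in Sesn2SkM-Tg muscle. In Sesn1SkM-Tg muscle 31 were then lower, although neither library is in that comparison, which shares only the estimate of the spread with them. All 6 genes lower in the 5 comparisons kept their calls in set 1. The shares of all genes called with libraries left out are not given, so these changes in counts are not read as particular to the family.

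**Figure D3:**
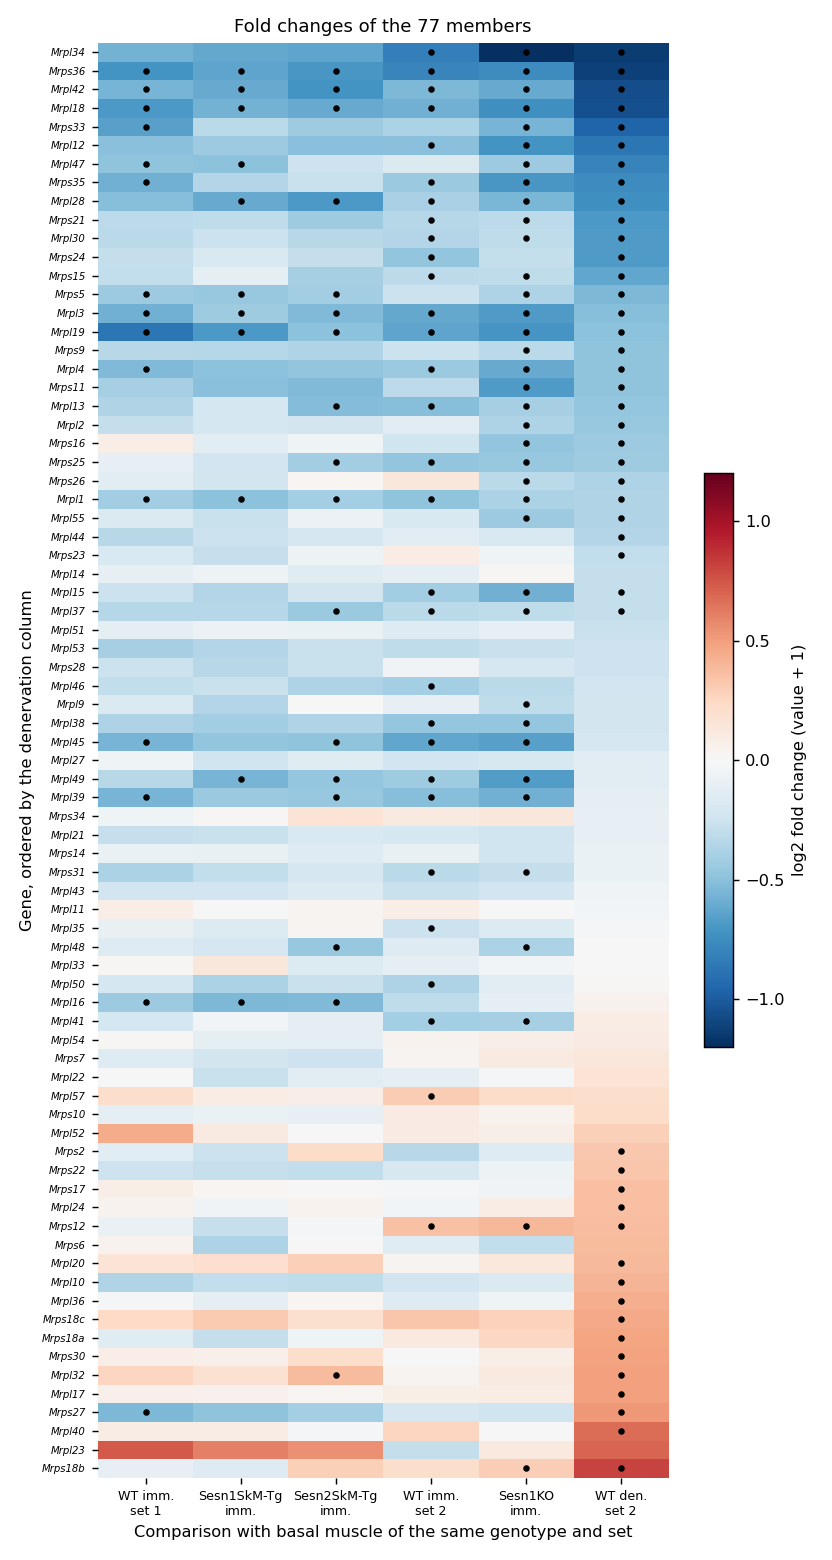
Log2 fold change (of normalized count + 1) of the 77 genes, in rows ordered by the denervation column, against basal muscle of the same genotype and set. Blue is lower, red is higher and a dot marks a called gene on the deposited scale, so that dots on blue cluster in the upper rows in all 6 columns, while dots on red are in 16 of the lower rows of the denervation column and in few elsewhere.

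After denervation genes of the family were called in both directions, as were genes at large. In WT muscle of set 2, 30 of the 77 genes were lower (39.0%) and 16 higher (20.8%) than in basal muscle, where 27.7% of all genes were lower and 27.8% higher. The median log2 fold change was -0.13, with 50 genes below 0, where 48.4% of all genes were above 0. This comparison shares the basal libraries with the immobilization comparison of WT muscle. After rescaling, 38 genes were higher (46.6% of all genes were) and 7 lower (13.8%), the median of all genes stood at 0.346 and that of the family at 0.317. The direction of the split thus depended on the scale. The genes called on both scales were all 16 that were higher and 7 that were lower, Mrpl34, Mrps36, Mrpl42, Mrpl18, Mrps33, Mrpl12 and Mrpl47.

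The largest fall was that of Mrpl34, at 16.2, 10.1, 11.7 and 13.5 after denervation, a log2 fold change of -1.14 ± 0.15 (SE, adjusted p = 1.9e-06). Mrps36 was at 20.2, 19.7, 22.9 and 28.1, a log2 fold change of -1.12 ± 0.12 (SE, adjusted p = 8.43e-08). Mrpl42 was at 84.1, 87.6, 91.8 and 103, a log2 fold change of -1.06 ± 0.09 (SE, adjusted p = 3.5e-09). For all of them the denervated libraries were below all basal libraries, whose values are given above. After rescaling, the log2 fold changes were -0.70, -0.67 and -0.60. Mrpl18 was at 32.3, 34.6, 38.97 and 43.3, again below all basal libraries, with a log2 fold change of -1.05 ± 0.11 (SE, adjusted p = 6.85e-08).

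The largest rise was that of Mrps18b (chr17:35910379-35916389, minus strand), a small subunit protein and 1 of 3 paralogs of bacterial S18 in mitochondria. It was at 34.7, 31.00, 35.1 and 33.9 in basal, 36.7, 43.2, 41.1 and 35.4 in immobilized and 59.00, 63.4, 55.8 and 61.6 in denervated WT muscle. The denervated libraries were above all others, and the log2 fold change from basal was 0.81 ± 0.09 (SE, adjusted p = 1.7e-07). The other paralogs were higher too, Mrps18a at 0.47 ± 0.11 (SE, adjusted p = 0.00091) and Mrps18c at 0.45 ± 0.13 (SE, adjusted p = 0.00632). Mrpl40 (chr16:18872018-18876862, minus strand), a large subunit protein particular to mitochondria, was at 12.4, 13.9, 12.05 and 11.9 in basal and 20.6, 20.9, 21.9 and 18.6 in denervated muscle, a log2 fold change of 0.67 ± 0.12 (SE, adjusted p = 4.66e-05) without overlap. Mrps27 (chr13:99344786-99415562, plus strand), a small subunit protein of the pentatricopeptide repeat family, was at 28.2, 26.7, 28.6 and 35.2 and 50.04, 43.8, 43.1 and 35.6, a log2 fold change of 0.52 ± 0.13 (SE, adjusted p = 0.0022). Its lowest denervated library was just above its highest basal one. Mrps27 was lower after immobilization in WT muscle of set 1, at -0.54 ± 0.20 (SE, adjusted p = 0.0434), where replicate 4 of the basal group was at 54.5 and the others at 27.6 to 32.7, a call that was lost after rescaling. On the rescaled values the rises after denervation were 1.27 for Mrps18b, 1.11 for Mrpl40 and 0.98 for Mrps27.

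The genes of the stalk that recruits translation factors to the large subunit went different ways after denervation. Mrpl10, the anchor of the stalk, was at 29.2, 32.5, 34.5 and 32.9 in basal, 21.9, 27.2, 31.8 and 28.99 in immobilized and 48.4, 39.3, 42.9 and 41.99 in denervated WT muscle, a log2 fold change from basal of 0.41 ± 0.10 (SE, adjusted p = 0.00179). Mrpl12, whose copies form the mobile part of the stalk, was at 117, 135, 109 and 102 in basal, 77.6, 70.7, 85.2 and 92.2 in immobilized and 66.8, 64.99, 57.4 and 62.1 in denervated muscle. It was lower in both, with log2 fold changes of -0.50 ± 0.11 (SE, adjusted p = 0.00147) and -0.86 ± 0.11 (SE, adjusted p = 1.18e-06), and also in immobilized Sesn1KO muscle at -0.72 ± 0.11 (SE, adjusted p = 3.22e-05), and was not called in set 1. Mrpl11, at the base of the stalk, was not called in any of these comparisons (-0.04 after denervation).

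**Figure D4:**
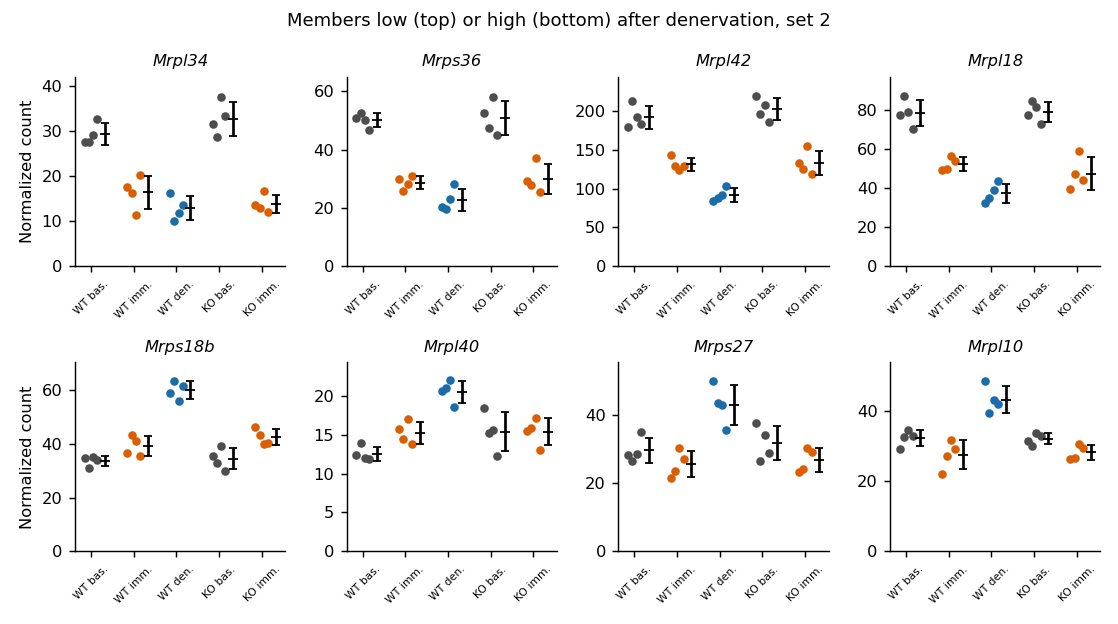
Normalized count in each library of set 2 for 4 genes that were low after denervation (Mrpl34, Mrps36, Mrpl42, Mrpl18, top) and 4 that were high (Mrps18b, Mrpl40, Mrps27, Mrpl10, bottom), with the mean and standard deviation of each group (n = 4). The denervated libraries lie below the basal WT libraries in the top panels and above them in the bottom panels, and the immobilized libraries lie below the basal ones in the top panels.

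By subunit, and on the deposited scale, 17 large subunit genes were lower and 9 higher of 50 after denervation, and 12 small subunit genes were lower and 7 higher of 26. Among large subunit genes with a bacterial homologue 14 of 30 were lower and 6 higher, and among those particular to mitochondria 3 of 20 were lower and 3 higher. Immobilization of WT muscle in set 2 lowered 21 of 50 large subunit genes and 6 of 26 small subunit genes, with medians of -0.25 and -0.20. In Sesn1KO muscle these counts were 23 of 50 and 11 of 26, with medians of -0.25 and -0.26. Of all genes, 27.7% were lower and 27.8% higher after denervation. After immobilization 17.7% of all genes were lower in WT muscle of set 2 and 19.9% in Sesn1KO muscle. Counts by subunit after rescaling are not given, and on that scale the family had 7 genes lower and 38 higher after denervation. The differences between the subunits were not tested.

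Set directly against immobilized WT muscle, denervated muscle had 20 of the 77 genes higher and 14 lower, where 20.5% of all genes were higher and 18.4% lower. The median over the family was 0.10. After rescaling 47 genes were higher (40.4% of all genes were) and 1 (Mrpl47) lower (8.68%), with the median of all genes at 0.258 and that of the family at 0.436. The 20 genes higher on the deposited scale were all among those 47. The largest rises were Mrps27 at 0.73 ± 0.13 (SE, adjusted p = 0.000181), Mrps2, of the small subunit, at 0.65 ± 0.14 (SE, adjusted p = 0.000596) and Mrpl10 at 0.64 ± 0.10 (SE, adjusted p = 3.75e-05). The largest falls were Mrpl47, a large subunit protein, at -0.63 ± 0.10 (SE, adjusted p = 5.89e-05), Mrps33, a small subunit protein particular to mitochondria, at -0.58 ± 0.20 (SE, adjusted p = 0.0228) and Mrpl42 at -0.52 ± 0.09 (SE, adjusted p = 0.000112). Mrpl47 was at 21.2, 25.6, 20.6 and 20.5 in immobilized and 13.5, 13.2, 13.7 and 14.8 in denervated muscle, without overlap. The call of Mrps33 was lost without replicate 1 of the denervated or of the immobilized group.

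The summed level of the 77 genes was 2477 to 2680 after denervation, below all basal libraries, and its share of the library sum, 0.305% to 0.348%, was above that of all basal libraries. The library sums were lower after denervation, at 722430 to 811541 against 1042064 to 1099736. Of the fibre markers 9 of 9 were lower, and their summed level was 52711 to 68438, while the macrophage and leukocyte sum was 47.4 to 124 and 4 of 4 proliferation markers were higher. Of the endothelial markers 5 of 5 were lower, with a summed level of 120 to 154 against 238 to 303 in basal muscle. The summed level of 3 satellite cell markers was 95.7 to 116 against 23.7 to 27.2, and of these Myod1 was called higher (2.23 on the log2 scale) and Pax7 and Myf5 were not called. Of the fibroblast markers 2 of 5 were lower. The part of these shifts in the changes of the mitochondrial ribosomal genes was not tested.

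Other genes of the pathway were set beside the family, on the deposited scale. Of all genes, 17.7% were lower and 16.2% higher in immobilized WT muscle of set 2, and 19.9% and 17.2% in immobilized Sesn1KO muscle. After denervation these shares were 27.7% and 27.8%. Of 81 nuclear oxidative phosphorylation genes, most of which encode partners of the subunits this ribosome makes, 64 were lower after immobilization in WT muscle of set 2 (median -0.40), 60 in Sesn1KO muscle (-0.40) and 77 after denervation (-1.06), and 0 were higher. Of 80 cytosolic ribosomal protein genes, 57 were higher and 2 lower in immobilized WT muscle (median 0.39) and 74 higher and 1 lower after denervation (0.71). The family lay between these lists in all 6 comparisons with basal muscle, as the plot of fold changes by list shows. These lists are described by their counts and were not tested against each other.

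**Figure D5:**
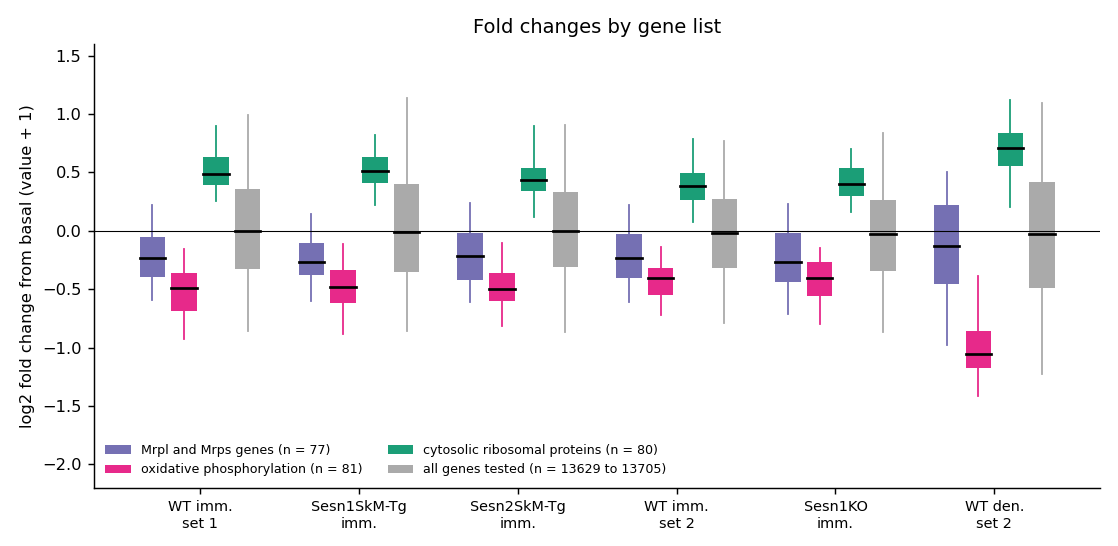
Log2 fold change from basal muscle (of normalized count + 1) for the 77 mitochondrial ribosomal protein genes, nuclear oxidative phosphorylation genes, cytosolic ribosomal protein genes and all genes tested in 6 comparisons. Black lines are medians over genes, boxes span the 25th to 75th percentiles and lines the 5th to 95th, and after denervation the medians are -0.13, -1.06, 0.71 and -0.03 in that order.

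Factors that act on the mitochondrial ribosome were also counted on the deposited scale, beside the same shares of all genes. Rescaling raised the median of all genes by 0.0972 in the immobilization and by 0.374 in the denervation comparison. Whether the calls and small falls below hold after rescaling is not given. Of 15 mitochondrial translation factor genes, 10 were lower and 0 higher after immobilization in WT muscle of set 2, and 9 were lower and 1 higher after denervation. Tufm, the elongation factor that brings tRNA to the ribosome, changed by -0.67 after immobilization and -0.76 after denervation on the log2 scale, and both were called. Of 26 tested genes of ribosome assembly and rRNA modification, 7 were lower and 1 higher after immobilization and 5 lower and 6 higher after denervation, with a median of 0.02. Of the 13 mitochondrially encoded proteins, 9 were lower after immobilization and 13 after denervation. The mitochondrial ribosomal RNAs were both lower after denervation, with log2 fold changes of -0.90 for mt-Rnr1 and -1.11 for mt-Rnr2. Of 6 mitochondrial ribosomal proteins with other symbols, 3 were lower after immobilization and 4 after denervation. Dap3 changed by -0.51 and -0.43, and Ptcd3 by -0.78 and -0.32.

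Among regulators, on the deposited scale, 4 of 11 were lower and 1 higher after immobilization in WT muscle of set 2. After denervation 7 were lower and 2 higher. Ppargc1a, a coactivator of mitochondrial genes, changed by -0.59 and -2.04 on the log2 scale. Myc, a transcription factor of ribosome genes, changed by 1.85 and 2.78. Tfam, which packages and transcribes mitochondrial DNA, was not called after immobilization (-0.21) and changed by -0.47 after denervation. Nrf1, whose motif was counted in the promoters above, was called in neither.

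Across the 6 comparisons of a genotype with WT muscle, 1 gene of the family was called. Between Sesn1SkM-Tg and WT muscle, 0 of the 77 genes were called in the basal state (0.0292% of all genes were called) and 0 after immobilization (0.0073%), by limma. Of the family 0 had an unadjusted p under 0.05 in either, against 3.63% and 3.04% of all genes. Between Sesn1KO and WT muscle 0 were called in the basal state (0.147%) and 0 after immobilization (0.947%). The unadjusted p was under 0.05 for 2 of them (2.6%) in each, against 4.64% and 14.1% of all genes. The standard error of a gene had a median of 0.158 to 0.183 on the log2 scale in set 1 and 0.114 in set 2, which limits the size of a difference that could be seen.

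The median of the family against basal WT muscle was 0.000965 in Sesn1SkM-Tg muscle, but 0.165 without replicate 4 of basal WT muscle.

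In Sesn2SkM-Tg muscle most of the genes were above 0. Against basal WT muscle, 74 of the 77 genes were above 0 (52.6% of all genes were), with a median log2 fold change of 0.249 (0.199 after rescaling). However, 0 passed the test (2.5% of all genes were called). By limma, 14 had an unadjusted p under 0.05 (18.2%, against 15.6% of all genes). After immobilization 75 were above 0 (51.5% of all genes were), with a median of 0.240 (0.165 after rescaling). By limma, 19 had an unadjusted p under 0.05 (24.7%, against 19.2% of all genes), and 1 gene was called (2.94% of all genes). That gene, Mrps2, was at 22.6, 22.2, 24.5 and 21.1 in Sesn2SkM-Tg and 13.8, 15.7 and 15.6 in WT muscle, a log2 fold change of 0.56 ± 0.15 (SE, adjusted p = 0.0495). The groups did not overlap, and the call was lost when any 1 of the 7 libraries was left out. Without replicate 4 of basal WT muscle, the median of the basal comparison was 0.402 and 18 genes were higher. Without replicate 2 of basal Sesn2SkM-Tg muscle it was 0.122 and 0 genes were called. Without both libraries the median was 0.288 and 6 genes were higher, and 15 were higher in the immobilized comparison. Neither library is in the immobilized comparison, which shares only the estimate of the spread with them. The share of all genes called in these fits is not given, so 18, 6 and 15 are not set against a background.

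Short genes as a whole had higher medians than long genes in Sesn2SkM-Tg against WT muscle. Of all genes with exons under 1500 bases, the median log2 fold change against WT was 0.172 in the basal state and 0.124 after immobilization, and of those with at least 6000 bases -0.07 and -0.04. The mitochondrial ribosomal genes in the same bins had medians of 0.295 and 0.236, and of 0.248 and 0.179. Cytosolic ribosomal protein genes had medians of 0.313 and 0.242, and oxidative phosphorylation genes of 0.419 and 0.432. The part of length in the levels of the family was not tested.

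The effect of immobilization itself was compared between genotypes by an interaction term. For Sesn1SkM-Tg against WT, 0 of the 77 genes passed (0% of all genes were called), for Sesn2SkM-Tg 0 (0.0073%) and for Sesn1KO 0 (0.022%), by limma. The unadjusted p was under 0.05 for 0, 0 and 1 of them, against 2.93%, 7.35% and 7.98% of all genes. The median standard error of this difference was 0.242, 0.233 and 0.161 on the log2 scale. A difference in the response of these genes between genotypes was therefore not detectable beyond that error, which does not show that the responses were alike.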

How the data were processed

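RNA was measured in 42 libraries of TA muscle (11 groups in 2 sets, from the labels). By the paper's methods and the submitters' notes, the authors prepared libraries with the NEBNext Ultra kit, trimmed reads with Cutadapt 1.7.1, quantified them with RSEM 1.2.20 against GRCm38 and normalized them with limma. The signal in the deposited table is a normalized count per gene, linear and never 0 (lowest 0.00476). They summed to between 722430 and 1276769 per library, not to a fixed total. The number of reads is unknown, so no count model was used and no counting error is given. How the sets were combined is not given in the sources used here, and the sets were never compared with each other.

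Genes that reached 1 in any library of a set were kept (13705 in set 1 and 13629 in set 2) and fitted with limma 3.58.1 in R 4.3.3. A coefficient per group was fitted to log2(value + 1), and eBayes was run with a trend. Fold changes are on that scale, which understates changes of low genes. Two-sided p-values were adjusted over all genes of a set by the Benjamini-Hochberg method, and calls needed an adjusted p under 0.05 and a change of 0.25 or more on the log2 scale, the limits used in the study. The fit was tested on simulated data. Where the labels do not tie libraries to separate animals, p-values measure the spread between libraries.

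Members were rows whose symbol is Mrpl or Mrps, a number and at most 1 letter. The members and gene lists were chosen with earlier results of these data known, so the lists are described by counts and medians only. The genes named are the 3 called members with the largest rise and fall in each disuse comparison, called members of each genotype comparison, members lower or higher in all 5 immobilization comparisons, the 3 highest and lowest per kb, the S18 paralogs, the stalk genes and Mrps36. A named gene may be given in other comparisons too. Genes outside this rule were named for shared exons, for being called on both scales or as neighbours in level. Positions and exon lengths are from GENCODE M21, which matched 13715 genes (99.3%). Alternatives were other pseudocounts and filters, quantile normalization, median centring, rescaling to a sum of 1000000, no trend, a replicate block, other thresholds, only the groups compared and leaving out each library. Leaving out both libraries that stood apart was added after seeing the data. Python 3.11.15 and matplotlib 3.10.9 drew the figures.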

Additional observations from a re-analysis of the deposited data

Results flagged for a closer look

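In groups of 4 libraries, a library was singled out where its gap to the nearest other library, divided by the range of the group, exceeded Dixon's critical value for 4 values. Of 180 such tests over 18 named genes, the summed level and its share of the library sum, 14 met it, and chance gives about 1 in 20. No explanation was weighed.

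Replicate 4 of basal WT muscle in set 1 was high in 6 of the 14. Its summed level of the family was 3952 against 2450.07 to 2702 in the others. It was also high for Mrpl32 (27.5 against 19.3 to 20.5), Mrpl57 (27.7 against 14.96 to 16.6), Mrps12 (28.7 against 18.1 to 19.9), Mrps2 (23.97 against 14.6 to 14.8) and Mrps36 (73.04 against 34.6 to 41.01). Replicate 2 of basal Sesn2SkM-Tg muscle was high for Mrpl10 (55.1 against 34.9 to 37.4) and Mrps18b (58.3 against 34.4 to 37.8).

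In set 1, replicate 4 of basal Sesn1SkM-Tg muscle was high for Mrps12 (28.5 against 23.1 to 23.4) and replicate 2 of immobilized Sesn2SkM-Tg muscle low for Mrpl32 (27.1 against 31.2 to 31.9). In set 2, Mrpl19 was low in replicate 3 of basal WT muscle (19.02 against 23.2 to 23.9) and high in replicate 4 of immobilized WT muscle (19.2 against 12.4 to 13.2). Replicate 2 of immobilized WT muscle was high for Mrpl47 (25.6 against 20.5 to 21.2), and replicate 3 of immobilized Sesn1KO muscle for Mrpl32 (29.4 against 23.7 to 24.2).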

How the results depend on the processing

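No named gene changed direction under any alternative run. The median over the family did when libraries were rescaled to equal sums. After immobilization it went from -0.23 to 0.10 in WT, from -0.27 to 0.03 in Sesn1SkM-Tg and from -0.22 to 0.09 in Sesn2SkM-Tg muscle of set 1. After denervation it went from -0.13 to 0.32. Which of the 2 scales is closer to the levels in the muscle was not tested. Medians of genotype comparisons and of differences between genotypes that lay near 0 also changed sign under some alternatives. Of the named genes' values under other settings, 495 kept their side of the threshold and 47 lost their call, and with 1 library left out 342 kept it and 60 lost it. For Mrps2 between immobilized Sesn2SkM-Tg and WT muscle, the 1 call became 0 under a pseudocount of 0.1, quantile normalization, median centring, rescaling, no trend and the replicate block. In Sesn1SkM-Tg muscle the 11 genes called after immobilization became 6 under quantile normalization, 6 after rescaling, 21 with only the groups compared and 31 without both libraries that stood apart. In WT muscle of set 1 the 15 became 2 with only the groups compared. With a log2 fold change threshold of 0.5, the counts were 7 in Sesn1SkM-Tg, 7 in Sesn2SkM-Tg, 9 in WT of set 2 and 16 in Sesn1KO muscle after immobilization, 18 after denervation and 12 for denervation against immobilization. Without both libraries, 6 genes were called in the basal and 15 in the immobilized comparison of Sesn2SkM-Tg with WT muscle. The cause of these changes was not tested. Apart from rescaling, the shares of all genes called under the other settings, or with libraries left out, are not given beside the counts.

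With 1 library left out, the counts ranged from 2 to 17 (WT, set 1), 3 to 11 (Sesn1SkM-Tg), 5 to 21 (Sesn2SkM-Tg), 22 to 28 (WT, set 2) and 30 to 36 (Sesn1KO) after immobilization, 42 to 45 after denervation and 29 to 35 for denervation against immobilization. They ranged from 0 to 18 between basal Sesn2SkM-Tg and WT muscle, where 18 came without replicate 4 of basal WT muscle, and were 0 without any 1 library in the immobilized comparison.

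The replicate numbers were not treated as pairs: the correlations of same-numbered libraries' deviations ranged from -0.452 to 0.534, and in no comparison did every pair exceed 0.1. With the replicate number as a block, 8 genes were called after immobilization in WT muscle of set 1 in place of 15, 8 in Sesn1SkM-Tg, 15 in Sesn2SkM-Tg, 30 in WT of set 2, 36 in Sesn1KO muscle, 44 after denervation and 34 for denervation against immobilization. The unknown depth limits what can be said of the least abundant genes.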
